A study of Homo sapiens with 2 samples.

Results

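The genes described here encode plasma proteins that the liver secretes in bulk, apart from the serpin protease inhibitors. They are TF, A2M, CP, APOE, CLU, AGT, ORM1, ALB, FGB and TTR, 10 of the 19775 genes that could be named on the arrays. They were taken by name, and every probe set annotated to exactly 1 of these symbols was used, which gave 26 probe sets. The genes were chosen by their signals on these arrays, that is, with the difference between miR-127-3p and control in view, so all values of that difference are a description and carry no test.

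Total RNA was measured on Affymetrix expression arrays in LN229, an established human glioblastoma cell line grown in DMEM with serum. One culture carried the plasmid pSUPER.neo-miR-127-3p, which drives the microRNA miR-127-3p, and the control culture carried pSUPER.neo without it, so both share the vector. The study sought genes that the microRNA regulates in glioblastoma lines. Each group had a single array and no replicate, so no p-value is given, and the number of arrays limits the precision. The labels do not say whether each culture was a clone or a pool. The arrays differ in more than these genes: the epithelial markers KRT19 and EPCAM were bright under control and dim under miR-127-3p. GFAP, a defining astrocyte marker, was dim on both arrays, while the astrocyte markers S100B, FABP7 and GLUL were bright on both. Whether both cultures held the labelled line was not tested.

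Plasma proteins carry metals, lipids and hormones, inhibit proteases and clot blood. Hepatocytes make most of them under liver-enriched transcription factors such as those of the HNF1, HNF4, FOXA and C/EBP families, and many change in the acute phase response, which interleukin-6 drives through STAT3. Several are also made in the brain: astrocytes secrete APOE, CLU and AGT, the choroid plexus makes TTR, and TF comes from oligodendrocytes and choroid plexus.

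The overexpressed microRNA is given first because it is the only difference between the cultures that the labels name. Its mature sequence, from RefSeq on GRCh38.p14, lies at chr14:100883035-100883056 on the + strand, and the capitals mark the seed, bases 2 to 8, which pairs with target transcripts.

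hsa-miR-127-3p: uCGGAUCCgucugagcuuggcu

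The signals divide the 10 genes into 3 patterns. TF, A2M and CP were lower with miR-127-3p, TF and A2M by more than any other member. APOE, CLU and AGT were slightly brighter with miR-127-3p and stayed within 2-fold. ORM1, ALB, FGB and TTR lay below the median signal of both arrays at every probe set. That median, in arbitrary units, was 83.3 under miR-127-3p and 93.9 under control, and a signal below it was treated as dim, since no detection calls were used. A probe set was above the filter if the mean of its log2(signal + 1) over both arrays exceeded the median of all probe sets, a signal of about 83.0, and the brightest such set stood for its gene.

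TF encodes transferrin, which carries ferric iron to cells. The probe set 203400_s_at gave 663 under miR-127-3p and 20948 under control, and 214063_s_at gave 462 and 14657.5. Both sets put TF about as far apart, 31.8-fold and 31.9-fold lower with miR-127-3p. The probe set 214064_at gave 42.1 and 299, at least 3.59-fold lower because the dimmer signal was under the array median. The last, 220109_at, was dim on both arrays at 34.5 and 41.6 and gives no fold. The brightest probe sets of TF carry the suffix for cross-matching probes, and the set at 31.8-fold stands for the gene below. TF lies at chr3:133661998-133796641 on GRCh38.p14.

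A2M encodes alpha-2-macroglobulin, a broad inhibitor that traps proteases, and lies at chr12:9067708-9116229. Its probe set 217757_at gave 1424 under miR-127-3p and 20234 under control, 14.3-fold lower. The other, 1558450_at, was dim on both arrays at 0.990 and 58.0, so the difference in A2M rests on 1 probe set.

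CP encodes ceruloplasmin, a copper-carrying ferroxidase that works with transferrin in iron export, and lies at chr3:149162414-149221829. All 4 of its probe sets were above the filter and brighter in the control. The probe set 204846_at gave 640 under miR-127-3p and 1453 under control, 2.29-fold lower. The probe set 1558034_s_at gave 170 and 580, 3.41-fold lower. The remaining sets lay just short of 2-fold, 227253_at with 658 and 1247 at 1.91-fold and 228143_at with 242 and 471 at 1.96-fold. CP is therefore counted as past 2-fold by a narrow margin, while its direction was shared by all 4 sets.

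APOE, the apolipoprotein that astrocytes load with cholesterol, was brighter with miR-127-3p at all 3 probe sets. They gave 1245 against 957, 1045 against 801, and 736 against 449 in the control, with log2 ratios of 0.37, 0.37 and 0.70. All 3 carry a suffix for cross-matching probes, the last being 212884_x_at, so APOE has no value without such sets. APOE lies at chr19:44905796-44909393.

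CLU encodes clusterin, a secreted chaperone also known as apolipoprotein J. Its probe set 208791_at gave 5508 under miR-127-3p and 4454 under control, 208792_s_at gave 4902 and 4219, and 222043_at gave 1158 and 806. Their log2 ratios were 0.29, 0.20 and 0.51, all on the side of miR-127-3p. The probe set 1559228_at was dim on both arrays at 1.81 and 37.1.

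AGT encodes angiotensinogen, the precursor of the angiotensin peptides. Its only probe set gave 351 under miR-127-3p and 258 under control, and its log2 ratio was 0.43. The 7 probe sets of APOE, CLU and AGT above the filter all had ratios above 0, between 0.20 and 0.70. For scale, the 2 brightest probe sets of a gene disagreed in log2 ratio with a robust SD of 0.30 per set over 5974 genes, an error within the arrays that leaves out the cultures. The ratio of CLU was smaller than this spread at its brightest set, and those of APOE and AGT were larger by a small margin.

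The 4 dim members are the classical products of hepatocytes. ALB, serum albumin, had 4 probe sets, 26.3 under miR-127-3p against 11.1 under control, 34.1 against 4.75, 3.04 against 10.7 and 1.06 against 8.53. Albumin sets were thus brighter on either array, at levels where the order has no meaning. FGB, the beta chain of the clotting protein fibrinogen, gave 1.73 against 42.1 and 8.98 against 5.62. ORM1, the acute phase glycoprotein orosomucoid, gave 34.5 against 56.2, and 2 further probe sets shared with its near copy ORM2 were dim too, at 48.4 against 32.6 and 2.33 against 4.81. TTR, transthyretin, which carries thyroid hormone and retinol-binding protein, gave 17.4 against 74.8. Of the 8 probe sets of ORM1, ALB, FGB and TTR, 5 were brighter in the control. No fold is given for any of them.

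**Figure D1:**
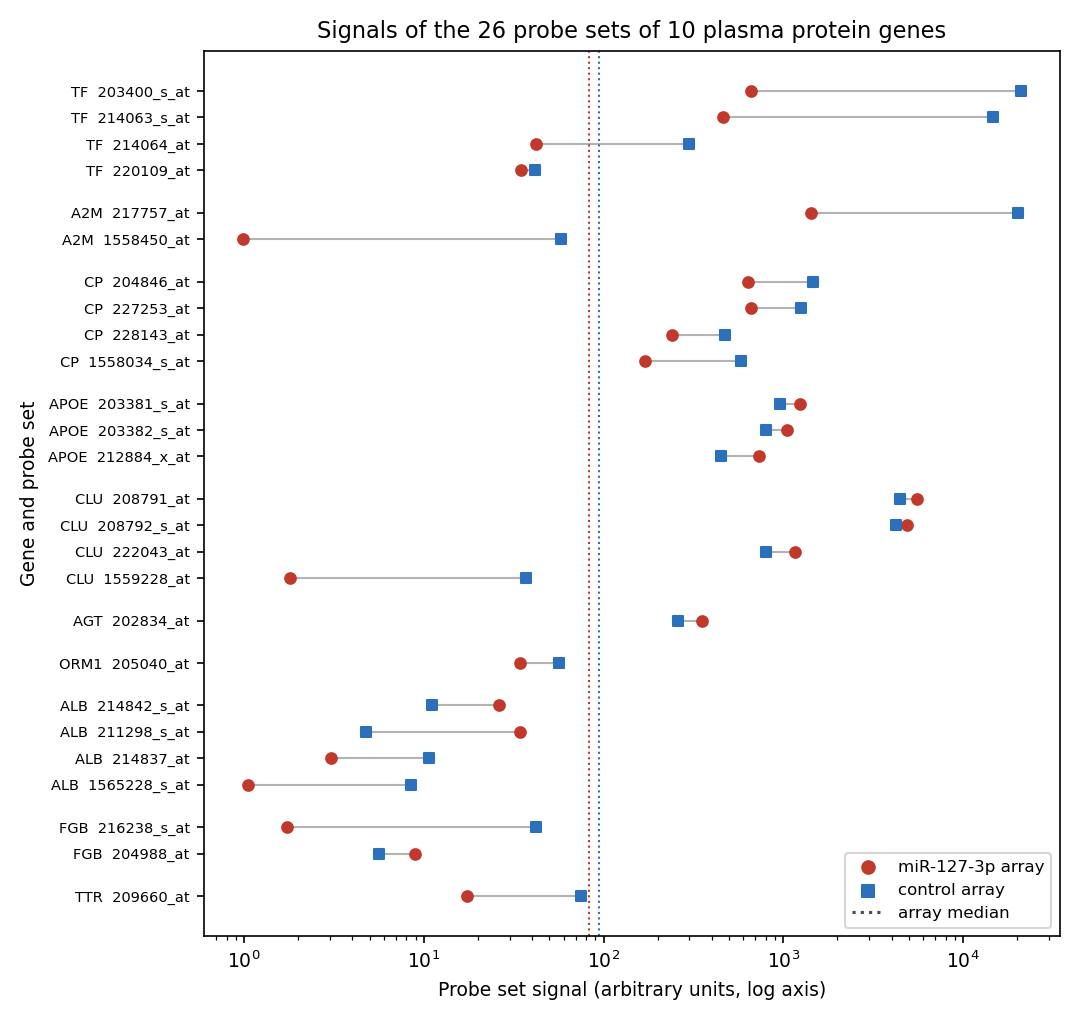
Signals of all 26 probe sets of the 10 genes on the miR-127-3p array (red circles) and the control array (blue squares), in arbitrary units on a log axis, with each array's median as a dotted line. The sets of TF, A2M and CP above the medians are brighter in the control, those of APOE, CLU and AGT are slightly brighter with miR-127-3p, and those of ORM1, ALB, FGB and TTR lie left of the medians. Signals of different probe sets are not comparable as transcript levels.

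Counts put these members beside all genes. Of the 10 genes 6 passed the filter, and of those 3 were lower by 2-fold or more under miR-127-3p and none higher. Among all 11985 genes that passed, 8.67% were lower and 5.06% higher by that much. Since the members were chosen with this difference known, nothing is read from these shares together. By probe sets, 15 of the 26 were above the filter and 6 of the 15 were lower by 2-fold or more and none higher, against 8.08% lower and 5.28% higher among 22459 named probe sets above it. The other 9 stayed within 2-fold, and the 11 below the filter were all dim on both arrays.

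The median log2 ratio over the 6 members above the filter was -0.45, between a lowest value of -4.99 for TF and a highest of 0.43 for AGT, and the median over all genes is 0 by construction. With a pair of dim signals set to no difference, the median over all 10 members was 0. By rank from the lowest ratio among the 11985 genes, TF was at place 62, A2M at 105 and CP at 763. CLU, APOE and AGT stood at places 8480, 9005 and 9423, in the upper part of the order.

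**Figure D2:**
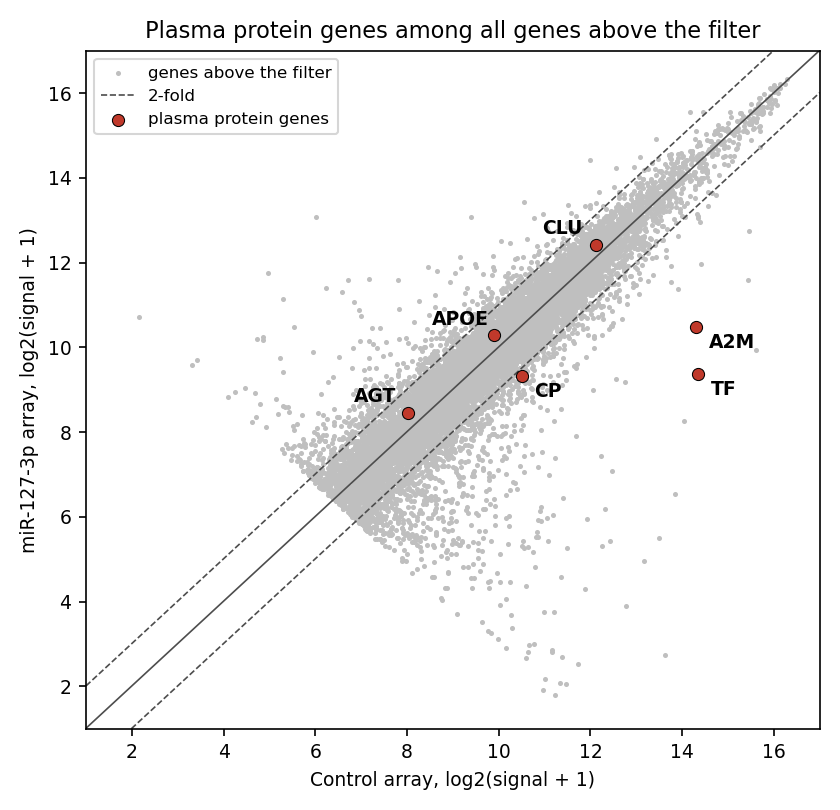
Log2(signal + 1) on the control array (horizontal) and the miR-127-3p array (vertical) for the 11985 genes above the filter (grey), with the 6 plasma protein genes above it in red, the line of equal signal and dashed lines at 2-fold. TF and A2M lie far below the lower dashed line, CP just beyond it, and CLU, APOE and AGT just above the line of equal signal.

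The genes most like TF, the member with the highest control signal, were sought as those nearest to it in both arrays' log2 signals. With 2 arrays this measure holds 2 values per gene. The nearest was A2M, at a distance of 1.10 log2 units. KRT8, a keratin of simple epithelia, followed at 1.15, with 307 under miR-127-3p and 16926 under control. SERPINA3, an acute phase protease inhibitor secreted by liver and reactive astrocytes, was at 1.37, with 973 and 49979, 51.7-fold lower. MYC, a growth-promoting transcription factor, and ASPSCR1 followed at 1.61 and 1.81, 12.1-fold and 9.84-fold lower.

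The 250 bases before the start of a gene are shown for TF, AGT and ALB, because these members stand for the patterns seen: far lower, slightly brighter and dim. RefSeq windows on GRCh38.p14 were matched for 6 of the 10 genes. They were searched on both strands for 6 motifs, and capitals mark the matches. The letters of the HNF1 core were GTTAAT, and those of the motif for C/EBP factors were TTNNGCAA. A STAT site was searched as TTCNNNGAA, the HNF4 site as CAAAGTCCA and the FOXA site as TGTTTAC, while the last motif was the TATA box, TATAAA. TF is at chr3:133746143-133746392 (+ strand, its downstream start), AGT at chr1:230714123-230714372 (- strand) and ALB at chr4:73404037-73404286 (+ strand).

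TF: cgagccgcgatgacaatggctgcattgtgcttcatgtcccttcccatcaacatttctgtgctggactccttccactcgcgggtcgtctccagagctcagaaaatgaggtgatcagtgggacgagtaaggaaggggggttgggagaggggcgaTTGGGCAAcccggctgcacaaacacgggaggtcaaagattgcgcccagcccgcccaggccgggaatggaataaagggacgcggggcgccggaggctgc
AGT: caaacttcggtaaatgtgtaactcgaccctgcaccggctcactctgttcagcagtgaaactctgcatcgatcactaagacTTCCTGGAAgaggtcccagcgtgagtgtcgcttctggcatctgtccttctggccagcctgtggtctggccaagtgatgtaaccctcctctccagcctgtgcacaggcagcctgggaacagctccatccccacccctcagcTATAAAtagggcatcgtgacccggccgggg
ALB: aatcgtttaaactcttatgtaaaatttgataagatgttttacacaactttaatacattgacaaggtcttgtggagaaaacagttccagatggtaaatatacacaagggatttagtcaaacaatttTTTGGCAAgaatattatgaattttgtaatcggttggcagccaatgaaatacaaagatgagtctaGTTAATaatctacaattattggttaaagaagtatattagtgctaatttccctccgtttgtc

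The TF window held 1 C/EBP match, TTGGGCAA, from 98 to 91 bases before the start, and the window of its upstream start held none of the 6 motifs. The AGT window held a STAT match, TTCCTGGAA, and a TATA box. ALB held an HNF1 core and a C/EBP match, as did FGB, while ORM1 held only a TATA box and none of the APOE windows held any. Of 35116 windows of this length, 9.05% held the C/EBP motif, 6.23% the HNF1 core, 6.57% the STAT motif and 10.7% the TATA box. The HNF4 motif was in 0.325% and the FOXA motif in 2.98%, and in none of the windows used for these 6 genes. A match describes these letters only.

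Other secreted plasma proteins outside the 10 were mostly dim. Of 65 listed genes 57 had values, and 43 of them were below the median of both arrays. Among 12 above the filter, 4 passed 2-fold downward and none upward, with a median log2 ratio of -0.69. For this list and those below, the shares among all genes above the filter were 8.67% lower and 5.06% higher. With dim pairs set to no difference, 5 of the 57 were lower, none was higher, and the median was 0, where 5.56% of all named genes were lower and 2.91% higher. CFI, complement factor I, a protease that inactivates complement, gave 2456 under miR-127-3p and 8528 under control, 3.50-fold lower, and its 2 probe sets lay at -1.83 and -1.81. CFB, complement factor B, gave 165 and 398, 2.43-fold lower. AZGP1, a zinc-binding glycoprotein, gave 67.1 and 321, at least 3.85-fold lower. F10, clotting factor X, gave 46.7 and 199, at least 2.39-fold lower. In the other direction none passed 2-fold, C3, the central complement protein, being at 0.53 with 5814 against 3983. The other fibrinogen chains were dim like FGB, FGA at 7.34 against 7.63 and FGG at 1.94 against 56.9.

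Transcription factors of liver genes differed among themselves. Of 27 listed 22 had values and 14 were above the filter, with 4 lower by 2-fold or more, none higher and a median of -0.35. The median was -0.73 without cross-match suffixes. Over all 22 with dim signals set to the array median it was 0, and 5 were lower. PROX1, a homeobox factor of liver and lymphatic vessels, gave 167 under miR-127-3p and 2387 under control, 14.3-fold lower, with 3 probe sets between -3.84 and -3.72. FOXA3 gave 69.6 and 508, at least 6.08-fold lower. CEBPA gave 97.4 and 208, 2.14-fold lower, and ONECUT2 gave 173 and 357, 2.08-fold lower, although another probe set of ONECUT2 was at -0.51. FOXA2 was below the filter with 8.56 and 375, at least 4.49-fold lower. CEBPB and CEBPD, the acute phase members of the C/EBP family, stayed within 2-fold at 0.46 and -0.06.

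Genes of acute phase signalling were nearly all measured, 16 of 17 above the filter. None was lower by 2-fold, 2 were higher, and the median was 0.05. IL1B, an inflammatory cytokine, lay at the edge with 337 and 667, 1.99-fold lower, and with its other probe set at -1.38. Under 5 of 13 alternatives 1 gene of the list was lower. JAK2 lay at the opposite edge with 191 under miR-127-3p and 96.8 under control, 1.95-fold higher, and with another probe set at 1.79. With quantile normalization, a pseudocount of 16 or 32, the mean of probe sets or no cross-match suffix, 3 genes of the list were higher. At a 1.5-fold threshold 5 were higher, and at 3-fold 1. IL1R1, the interleukin-1 receptor, gave 1587 under miR-127-3p and 479 under control, 3.28-fold higher. FKBP5, a chaperone induced by glucocorticoids, gave 4474 and 1487, 2.98-fold higher. STAT3 was at 0.14, although its probe sets reached 1.14, SOCS3, its feedback inhibitor, was at 0.48, and IL6ST, the shared receptor chain of the interleukin-6 family, was at -0.37. IL6 itself gave 128.4 and 128.5.

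Receptors and carriers of these proteins were lower for 3 of 10 genes above the filter, of 18 with values, none was higher, and the median was -0.56. Over all 18 with dim signals set to the array median it was -0.12, and 3 were lower. TFRC, which takes up iron-loaded transferrin, gave 18654 under miR-127-3p and 23921 under control, and its log2 ratio was -0.37, where TF itself had -4.99. LRP1, the receptor that clears protease-bound A2M, gave 182 and 437, 2.41-fold lower, though a second probe set was at -0.43. SORL1, a sorting receptor that binds APOE, gave 100.2 and 1358, 13.5-fold lower, and all 3 of its probe sets were below 0. VLDLR, another receptor of APOE, gave 140 and 530, 3.78-fold lower. AGTR1 and AGTR2, the angiotensin receptors, were dim on both arrays.

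Iron and copper genes lay on both sides of 0. Of 12 above the filter, of 15 with values, 9 had ratios above 0, with a median of 0.47, but only SLC31A1, the copper importer, passed 2-fold, with 1117 against 522. That 1 gene is 8.33% of the list above the filter, where 5.06% of all genes were higher. Leaving out probe sets whose name carries a cross-match suffix put the median at -0.06. FTL, the ferritin light chain, was at 0.14 with 69874 against 62813, and HMOX1, which frees iron from heme, was at 0.66. SLC40A1, the iron exporter ferroportin that works with ceruloplasmin, was below the filter with 16.1 against 343, at least 4.11-fold lower. Of 11 lipid export genes above the filter, of 13 with values, 1 was lower and 1 higher, with a median of 0.17. These shares are 9.09% each, where 8.67% of all genes were lower and 5.06% higher, so nothing is read from them. The median was -0.16 with a filter at the 75th percentile and -0.14 without cross-match suffixes, where none was higher. APOD, an apolipoprotein of glia, gave 352 and 1065, 3.04-fold lower, and APOL2 gave 978 and 444, 2.18-fold higher, though another probe set of APOL2 was at 0.15. ABCA1, which loads cholesterol on APOE, was at 0.83 with 1423 against 792.

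Markers of cell types that also make plasma proteins were set beside the members. Fewer cells of a type and less RNA per cell cannot be told apart in such cultures. Hepatocyte markers were mostly dim, 15 of 22 with values on both arrays, and their summed signal was 1556 under miR-127-3p and 1911 under control. Of 6 above the filter CYP3A4 was lower with 107 and 243, 2.28-fold. This was the only 1 of its 5 probe sets above the filter, and its name carries a cross-match suffix. CPS1, the brightest of the list, gave 503 under miR-127-3p and 430 under control, with its 2 probe sets at 0.21 and 0.81. It was the only 1 of the 6 with a ratio above 0. Without sets that carry such a suffix 1 hepatocyte marker, CPS1, was above the filter and 0 were lower. ASGR1, with 70.5 and 159, counts as the second lower gene by its measured ratio of -1.17, but against the array median it was only at least 1.91-fold lower. With dim signals set to the median, 1 of the 22 was lower. The hepatocyte enzymes HPD, OTC and CYP7A1 were dim on both arrays.

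Astrocyte markers were above the filter for 11 of 14 genes, with summed signals of 69854 under miR-127-3p and 74482 under control. Of these sums VIM alone made 48866 and 45584. GFAP, AQP4 and SLC1A2, which define mature astrocytes, were dim on both arrays. S100B, FABP7, GLUL and GJA1 were above both array medians and within 2-fold at their brightest probe sets. SOX9, SOX2 and NES, genes of glial precursors, were 3.11-fold, 2.37-fold and 2.04-fold lower, though another probe set of NES was at -0.46. With the mean of probe sets 2 astrocyte genes were lower. SLC1A3, which clears glutamate around synapses, was higher by at least 28.1-fold. The median was -0.35, and -0.02 over all 14 with dim signals set to the array median. Choroid plexus markers, which go with TTR in the brain, had 3 of 8 above the filter, none past 2-fold, and KCNJ13, KL and OTX2 were dim on both arrays. Their summed signal was 2720 under miR-127-3p and 2271 under control, of which FOLR1 at its brightest probe set made 2446 and 1863. Another probe set of FOLR1 was at -2.61, and with the mean of probe sets 1 choroid gene was lower and the median was -0.90.

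Epithelial markers ran in the direction of TF and A2M. Of 6 above the filter, of 14 with values, 5 were lower by 2-fold or more, and summed signals were 7823 under miR-127-3p and 86547 under control. Of these sums KRT18, bright on both arrays and 6.55-fold lower, made 6906 and 44863. KRT7 stayed within 2-fold at -0.73, and another of its probe sets was at 0.76. KRT19, EPCAM and ESRP1 were dim under miR-127-3p, and the median of -6.53 rests on dim signals. Over the 3 genes above the median on both arrays it was -2.72, with 2 lower. With dim signals set to the array median, 7 of all 14 were lower and none higher. KRT19 was at least 151-fold, EPCAM at least 110-fold, KRT8 55.4-fold and ESRP1 at least 13.6-fold lower. Of 4 intestinal markers above the filter, of 16 with values, 3 were lower, all dim under miR-127-3p, and summed signals were 877 and 5158. The median of -4.16 rests on those dim signals: it was 0 over all 16 with dim signals set to the array median, where 4 were lower, and the 1 gene above the median on both arrays was at -0.32. VIL1, villin, was at least 22.1-fold, ASCL2 at least 14.1-fold and TFF3 at least 9.66-fold lower, while CDX1, CDX2 and MUC2 were dim on both arrays. The part of these cell type markers in the lower signals of TF, A2M and CP was not tested.

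**Figure D3:**
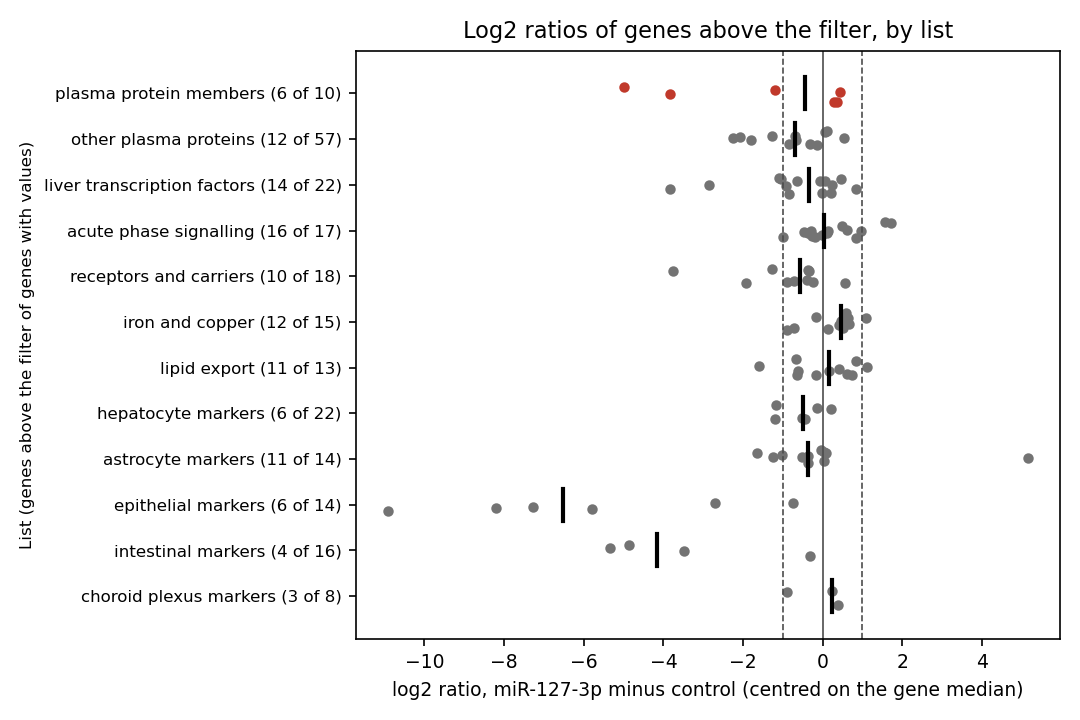
Log2 ratios (miR-127-3p minus control) of the genes above the filter in each list, with the median as a black bar, 0 as a solid line and 2-fold as dashed lines; the vertical spread within a row is arbitrary. The 6 plasma protein members (red) fall into a lower group of TF, A2M and CP and a group of 3 slightly above 0. Epithelial and intestinal markers extend far to the left, and for KRT19, EPCAM, ESRP1, VIL1, ASCL2 and TFF3 the signal under miR-127-3p was dim, so the exact ratio has no meaning.

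Control probe sets, 62 in all, were kept apart. The 3 for GAPDH had ratios between 0.02 and 0.05, the 3 for ACTB between 0.01 and 0.23, and the 16 hybridisation spikes between -0.03 and 0.68 with a median of 0.15.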

How the data were processed

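The authors deposited linear signal intensities, 1 per probe set and array, and these were used directly. How probes were summarised is not given in the sources used here. With the 2% of probe sets at either end left out, both means were 500.1. RNA was extracted with Trizol and labelled with a 3′ kit, per the labels' protocols. The platform annotation gave 1 symbol to 41091 of 54613 non-control probe sets, several to 1801 and none to 11721. Symbols were updated through Entrez identifiers with a RefSeq table of GRCh38.p14, which held 99.9% of them.

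Ratios are log2(signal + 1), miR-127-3p minus control, less the gene median of 0.01. Unless stated otherwise, ratios, counts, ranks and medians use the signals as measured, so a dim signal can make a ratio large in size. For the printed folds a dim signal was set to the array median, and a fold is then "at least". With 1 array per group no test was made. Members and lists were chosen with earlier results of these data known, and lists share some genes. Named genes were all members, up to 4 per direction of each list past 2-fold, genes fixed by name, and the 5 nearest to TF. All others, such as SLC40A1, C3 and the genes named as dim or within 2-fold, were chosen after their values were seen, IL1B and JAK2 included. Other thresholds, filters, pseudocounts, scalings and probe set rules were tried. The calculation was also run on simulated arrays, built from these 2 with planted changes and the probe set spread as noise. Variation between cultures was left out there, so this checks the calculation only. Python 3.11.15, numpy 2.4.6, pandas 2.3.3 and matplotlib 3.10.9 were used.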

Additional observations from a re-analysis of the deposited data

How the results depend on the processing

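Of the members above the filter in each setting, 3 were at least 2-fold lower under 11 of 13 alternatives, among them every scaling and pseudocount tried; the count was 2 at a 3-fold threshold and 5 without a filter, where 1 member was higher. Without a filter 12 member probe sets were lower and 2 higher, and dim sets enter there by construction. With sets lacking a cross-match suffix 3 of 8 were lower, and at a 1.5-fold threshold 1 set was higher. The member median moved to -1.24 with a filter at the 75th percentile, to -1.18 without cross-match suffixes, to -0.91 without a filter and to 0 with dim signals set to the array median, as other members enter or leave. The ratio of TF was -2.80 without cross-match suffixes and -4.27 as the mean of its probe sets, and those of A2M, CP, APOE, CLU and AGT moved by less than the probe set spread under all alternatives that gave them.

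Among all genes, 2167 were lower and 1743 higher at a 1.5-fold threshold, 472 and 188 at 3-fold, 387 and 259 with a filter at the 75th percentile, and 3400 and 2531 without one. The lower liver transcription factors numbered 2 with quantile normalization and 1 of 8 with a filter at the 75th percentile. The lower hepatocyte markers numbered 0 with a pseudocount of 32, and the lower receptors 0 of 5 with a filter at the 75th percentile. No paired analysis was possible because each group has 1 array. Their dim signals on both arrays allow no fold for ORM1, ALB, FGB and TTR under the setting reported.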
